A study of Homo sapiens with 4 samples.

Results

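CAV1, CAV2, CAVIN1, CAVIN2, CAVIN3 and EHD2, which encode 2 caveolins, 3 cavins and the ATPase of the caveolar neck, were read by gene name from the count files of 4 RNA-seq libraries. All 6 genes had counts in every library, and they make up 6 of the 31907 names with a count in any library and 6 of the 16361 that passed the filter on low counts. The libraries came from HGC-27, a line derived from a metastasis of an undifferentiated gastric carcinoma, which was kept for 48 h either with PBS (2 libraries) or with recombinant human IL-17B (rIL-17B) at 200 ng/ml (2 libraries). The comparison asks how the transcriptome of these cells differs after stimulation of the IL-17B receptor. Nothing in the labels says that the replicates were separate cultures, so the p-values measure only the spread between these libraries, which may be technical.

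Caveolae are flask-shaped pits of the plasma membrane that buffer membrane tension, take up cargo without clathrin and gather signalling proteins, and they are abundant in endothelium, adipocytes, muscle and fibroblasts. Caveolins are hairpin membrane proteins that form the inner coat of the bulb, and cavins are soluble proteins that assemble around them as trimers. CAVIN1 is needed to form a caveola at all, CAVIN2 and CAVIN3 join it in the coat, and EHD2 forms a ring at the neck that holds the pit at the cell surface.

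The totals were 15904594 and 12888029 counts with PBS and 14615341 and 17555879 with rIL-17B, and values are given as CPM, the count scaled by the total of its library. At these totals 3 counts, the smallest level taken as shown, correspond to between 0.171 and 0.233 CPM. Intervals on counts cover counting error only. They leave out any further spread between libraries, which was present also between the PBS libraries, as the chi-square below shows. The processing notes name no step that removes PCR copies, which would be counted as separate reads. The main edgeR fit rescaled the totals by TMM factors, 1.07 for rIL-17B replicate 1 and 0.97 to 0.98 elsewhere. CPM and percents of PBS were not rescaled, so they run higher in rIL-17B replicate 1 than with TMM. rIL-17B replicate 1 stood apart from the other 3 libraries across the whole transcriptome. Per degree of freedom, the chi-square between counts was 140 for the rIL-17B pair and 3.66 for the PBS pair, and 17.1% of the tested genes were at least 2-fold below both PBS libraries in rIL-17B replicate 1 against 0.134% in replicate 2. Sums of cell type markers also differed in this library, as given below, and whether it held the same cell population as the others was not tested. Each result is therefore given for both rIL-17B libraries on their own as well as together.

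The label of a gastric epithelial tumour line was checked against marker genes. KRT8, a keratin of simple epithelia, had 9566 and 7880 counts with PBS and 21295 and 13810 with rIL-17B. CDH1, which encodes E-cadherin, had between 7 and 11 counts in every library, and ESRP1 and GRHL2, regulators of the epithelial state, had at most 1. The level of 10 fibroblast markers summed to 19240 and 18811 CPM in the PBS libraries, 1022 CPM in rIL-17B replicate 1 and 16378 CPM in replicate 2. In rIL-17B replicate 1, 9 of these 10 were at least 2-fold below both PBS libraries, where 17.1% of tested genes were. Between the groups, the edgeR fit gave 9 a log2 fold change below 0 and 1 a value above 0. The libraries thus held keratin transcripts with almost no transcript of CDH1, ESRP1 and GRHL2. KRT8 and these 3 genes belong to a list of 10 epithelial markers, 6 of which passed the filter on low counts. Other genes of that list were therefore also expressed, and its summed level is given below. Fibroblast marker transcripts were abundant in all but rIL-17B replicate 1.

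CAV1 lies at chr7:116524785-116561184 on the plus strand (GENCODE 29, GRCh38), 16244 bases after CAV2 at chr7:116287380-116508541 on the same strand. CAVIN1 lies at chr17:42402452-42423517, CAVIN2 at chr2:191834302-191847255 and CAVIN3 at chr11:6318946-6320647, all on the minus strand, and EHD2 lies at chr19:47713343-47743134 on the plus strand. Of the 6, CAVIN1 alone overlaps no other annotated gene. An antisense transcript overlaps CAV1, CAV2 and CAVIN2, a processed transcript on the other strand overlaps CAVIN3, and a lincRNA on the same strand overlaps EHD2. These are overlaps of whole gene spans, and whether exons are shared was not looked at. The strand setting of the count is not given in the sources used here. Reads from any shared exon bases could therefore not be told apart.

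The 250 bases before the RefSeq start (GRCh38.p14) were available for CAV1, CAV2, CAVIN2 and EHD2, the 4 genes whose rIL-17B values all lay under their PBS values, as given below. CAVIN2 and EHD2 are shown because they stood lowest against PBS in rIL-17B replicate 1. Only the stretches outside annotated exons are printed, 5′ to 3′ on the strand of the gene, with CpG in capitals, at chr2:191847256-191847338 for CAVIN2 and chr19:47713172-47713342 for EHD2.
CAVIN2: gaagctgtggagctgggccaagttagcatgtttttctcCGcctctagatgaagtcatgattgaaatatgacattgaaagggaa
EHD2: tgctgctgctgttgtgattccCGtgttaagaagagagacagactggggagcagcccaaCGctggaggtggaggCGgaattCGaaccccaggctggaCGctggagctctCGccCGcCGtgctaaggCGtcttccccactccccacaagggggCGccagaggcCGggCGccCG
Over the full 250 bases, the CAVIN2 window held 4 CpG at 48.0% GC, the EHD2 window 20 CpG at 69.6%, the CAV1 window 18 CpG at 63.6% and the CAV2 window 35 CpG at 83.2%, where the median of 35116 RefSeq promoters was 11 CpG and 58.0% GC. GGGCGG, the GC box, was searched on both strands and occurred 3 times in CAV1, 6 times in CAV2, once in EHD2 and 0 times in CAVIN2, and 42.6% of all promoters hold at least 1. GGAATG, the core motif of TEAD factors, was found in CAVIN2 alone among these 4, between 16 and 11 bases before the RefSeq start, and 11.9% of all promoters hold it on either strand. It stands within the 30 bases at chr2:191847089-191847118, inside the first exon as GENCODE 29 draws it, and is in capitals here.
CAVIN2 start: ctttaagagcagctGGAATGcagttcccct
TATAAA occurred in none of the 4 windows, and 10.7% of all promoters hold it on either strand. The CAVIN2 window was thus the poorest in CpG of the 4 and CAV2 the richest, and no factor binding was measured. GENCODE 29 exons of the same gene covered all 250 bases for CAV2, 224 for CAV1, 167 for CAVIN2 and 79 for EHD2. Every GC box found lay in these exon bases. The CpG and GC box counts of CAV1 and CAV2 therefore describe mostly annotated exon sequence.

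With PBS the coat genes were present at unequal levels. Because a longer transcript yields more reads, levels of different genes were compared as CPM per kb of exon, over the union of a gene's GENCODE 29 exons. CAVIN1 was highest at 123 ± 0.629 CPM per kb (mean ± SD, n = 2), followed by CAVIN2 at 59.1 ± 4.49, EHD2 at 50.2 ± 1.67, CAV1 at 28.1 ± 0.536, CAVIN3 at 20.9 ± 1.13 and CAV2 at 8.63 ± 0.126. Neighbours in this order did not overlap between the PBS libraries. With the longest transcript as the length, CAVIN2 and EHD2 overlapped, since the lower PBS library of CAVIN2 was at 55.9 and the higher PBS library of EHD2 at 56.2 CPM per kb. CAVIN1 transcripts thus outnumbered those of each caveolin in both PBS libraries, and CAVIN2 was above EHD2 within each PBS library by either length.

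By exon union the same order held in rIL-17B replicate 2, while by the longest transcript CAVIN2 was below EHD2 there. In rIL-17B replicate 1 the order was CAVIN1 at 105 CPM per kb, EHD2 at 31.5, CAVIN3 at 25.04, CAV1 at 20.5, CAV2 at 5.75 and CAVIN2 at 0.424. CAVIN2 went from the second place to the last. The sum over the 6 genes was 295 and 286 CPM per kb with PBS, 189 in rIL-17B replicate 1 and 279 in replicate 2. Within that sum CAVIN2 made up 21.1% and 19.6% with PBS, 0.225% in rIL-17B replicate 1 and 18.4% in replicate 2. CAVIN1 made up 42.0% and 43.0% with PBS, 55.8% in rIL-17B replicate 1 and 44.3% in replicate 2.

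**Figure D1:**
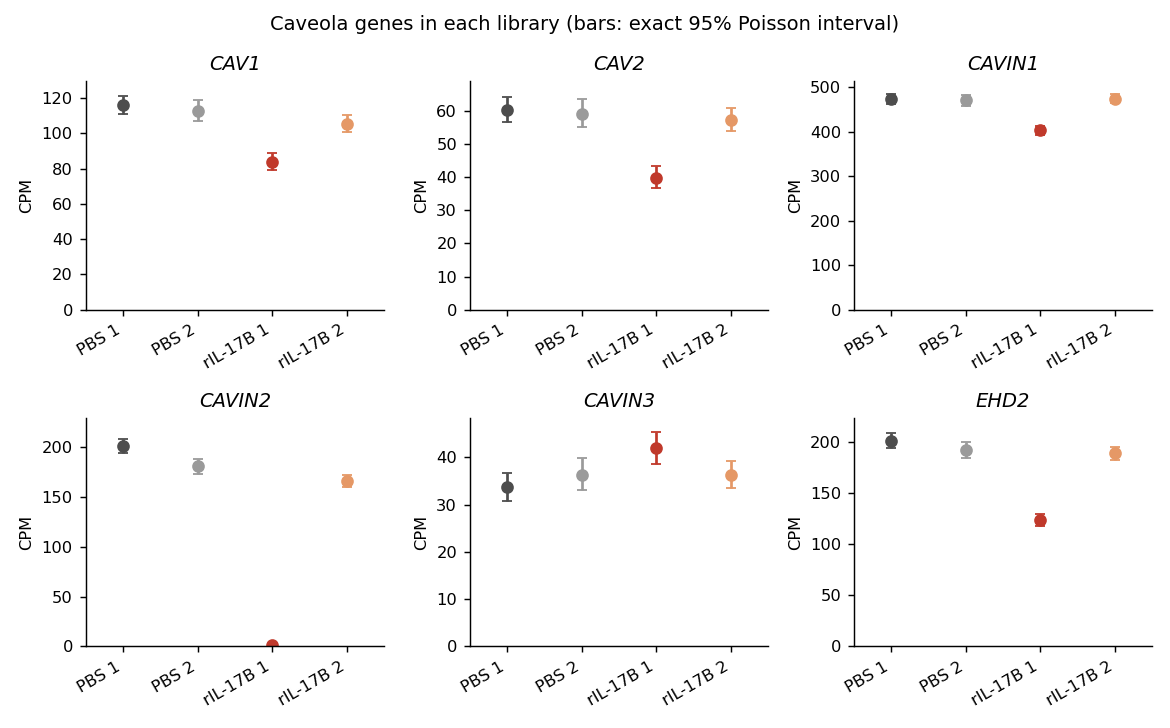
Level of each coat gene (vertical axes, CPM, from 0) in the 4 libraries (horizontal axes), with bars for the exact 95% Poisson interval of the count. CAVIN2 is at 1.37 CPM in rIL-17B replicate 1 and between 166 and 201 CPM elsewhere, while the other 5 genes stay within a factor of 2 of their PBS level in that library.

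Between rIL-17B and PBS, 0 of the 6 genes passed at an adjusted p of 0.05 (edgeR, quasi-likelihood, Benjamini-Hochberg), where 0% of the 16361 genes did, and 0 of the 6 had an unadjusted p under 0.05, where 1.38% (226 genes) did. The smallest adjusted p of any tested gene was 0.661 in edgeR, and many genes named here share that value, so it does not rank them. The unadjusted p in edgeR was 0.166 for CAV1, 0.248 for CAV2, 0.391 for CAVIN1, 0.581 for CAVIN2, 0.478 for CAVIN3 and 0.259 for EHD2. DESeq2 also called 0 of the 6. The fitted log2 fold change was below 0 for 5 genes and above 0 for CAVIN3, with a median of -0.35 over the 6 genes and -0.03 over all tested genes. The smallest two-sided p of an exact permutation test for a single gene is 0.333 with 2 libraries a group. Without a test, both rIL-17B values lay below both PBS values for 4 of the 6 genes (CAV1, CAV2, CAVIN2 and EHD2), as they did for 27.5% of the tested genes, and above them for 0 of 6, against 31.5% of the tested genes.

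Taken 1 library at a time, rIL-17B replicate 1 was below both PBS libraries for 5 of 6 genes (40.8% of tested genes), at least 2-fold below for CAVIN2 alone (17.1%) and at least 2-fold above for 0 of 6 (1.57%). Replicate 2 was below both PBS libraries for 4 of 6 (36.1%), and 0 of 6 were 2-fold below (0.134%) or 2-fold above (0.0244%). The PBS libraries were not 2-fold apart for any of the 6, where 0.636% of tested genes were. In bulk RNA, fewer cells of a kind and less RNA per cell cannot be told apart.

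Among the caveolins, CAV1, the main caveolin outside striated muscle, had 1846 and 1456 counts with PBS and 1226 and 1853 with rIL-17B, or 116, 113, 83.9 and 106 CPM. Both rIL-17B libraries were below both PBS libraries, and replicate 1 was the lower. The mean was 115 ± 2.19 CPM for PBS and 94.7 ± 15.3 CPM for rIL-17B (SD, n = 2), and edgeR's quasi-likelihood test gave a log2 fold change of -0.34 (SE 0.19, adjusted p = 0.661). Against the pooled PBS libraries, CAV1 stood at 73.1% (95% counting interval 68.4 to 78.1) in rIL-17B replicate 1 and at 92.0% (86.9 to 97.5) in replicate 2.

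CAV2, the partner that forms mixed oligomers with CAV1 and needs it to reach the cell surface, had 960 and 762 counts with PBS and 582 and 1006 with rIL-17B, or 60.4, 59.1, 39.8 and 57.3 CPM. It followed the pattern of CAV1, with replicate 1 below the other libraries. The means were 59.7 ± 0.873 and 48.6 ± 12.4 CPM (SD, n = 2 each), with a log2 fold change of -0.36 (SE 0.26, adjusted p = 0.661, edgeR). CAV2 stood at 66.6% of PBS (60.5 to 73.2) in rIL-17B replicate 1 and at 95.8% (88.6 to 104) in replicate 2, an interval that includes the PBS level. Within a library, CAV2 had 52.0 and 52.3 reads per 100 reads of CAV1 with PBS and 47.5 and 54.3 with rIL-17B. The 95% intervals of these 4 ratios overlapped, and the difference between libraries was not tested.

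Among the cavins, CAVIN1, the core coat protein, had 7535 and 6062 counts with PBS and 5889 and 8317 with rIL-17B, or 474, 470.4, 403 and 474 CPM. Replicate 1 was low and replicate 2 lay between the PBS libraries. The means were 472 ± 2.41 and 438 ± 50.1 CPM (SD, n = 2 each), with a log2 fold change of -0.17 (SE 0.18, adjusted p = 0.682, edgeR). CAVIN1 stood at 85.3% of PBS (82.7 to 88.0) in rIL-17B replicate 1 and at 100.3% (97.6 to 103) in replicate 2. CAV1 had 24.5 and 24.02 reads per 100 reads of CAVIN1 with PBS and 20.8 and 22.3 with rIL-17B.

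CAVIN2, also known as SDPR, which helps to curve the caveolar membrane, had 3199 and 2328 counts with PBS and 20 and 2915 with rIL-17B. These were 201 and 181 CPM with PBS, 1.37 CPM (95% Poisson interval 0.836 to 2.11) in rIL-17B replicate 1 and 166 CPM in replicate 2. CAVIN2 was nearly lost from the first rIL-17B library, and in the second it was the lowest of the other 3 libraries. In rIL-17B replicate 1 it stood at 0.713% of PBS (0.435 to 1.10), or 140-fold lower (90.7 to 230), and in replicate 2 at 86.5% (82.7 to 90.5). The PBS libraries themselves differed for CAVIN2, with replicate 2 at 0.898 of replicate 1 (0.851 to 0.948). The group means were 191 ± 14.5 and 83.7 ± 116 CPM (SD, n = 2 each), so the spread within the rIL-17B group exceeded the difference between the groups, and the log2 fold change of -1.20 had an SE of 1.98 (adjusted p = 0.762, edgeR).

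In rIL-17B replicate 1, 346 tested genes (2.11%) stood at 1% or less of the pooled PBS level with at least 100 counts in every other library, and CAVIN2 was the only coat gene among them. By the log2 ratio to PBS in that library, with 0.5 CPM added, 79 of the 16361 tested genes were lower than CAVIN2, 3749 lower than EHD2, 4022 lower than CAV2, 4507 lower than CAV1, 5649 lower than CAVIN1 and 9951 lower than CAVIN3. The other 5 coat genes thus lay between the 5th and the 95th percentile of all tested genes in the same library.

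CAVIN3, which is found in cavin complexes with CAVIN1 and also binds protein kinase C delta, had 535 and 468 counts with PBS and 612 and 637 with rIL-17B, or 33.6, 36.3, 41.9 and 36.3 CPM. It was the only coat gene that was highest in rIL-17B replicate 1. The means were 35.0 ± 1.89 and 39.1 ± 3.95 CPM (SD, n = 2 each), with a log2 fold change of 0.09 (SE 0.11, adjusted p = 0.72, edgeR). CAVIN3 stood at 120% of PBS (109 to 133) in rIL-17B replicate 1 and at 104% (94.2 to 115) in replicate 2.

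Ratios between coat genes within 1 library do not depend on the library total. CAVIN2 had 42.5 and 38.4 reads per 100 reads of CAVIN1 with PBS, 0.34 (0.207 to 0.525) in rIL-17B replicate 1 and 35.0 in replicate 2. CAVIN3 had 7.10 and 7.72 reads per 100 of CAVIN1 with PBS, 10.4 (9.55 to 11.3) in rIL-17B replicate 1 and 7.66 in replicate 2. In rIL-17B replicate 1 the cavin transcripts were therefore mostly CAVIN1 and CAVIN3, and CAVIN2 made up 0.324% of the cavins per kb there, against 30.2% and 27.9% with PBS and 26.1% in replicate 2.

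EHD2, the ATPase of the caveolar neck, had 3205 and 2478 counts with PBS and 1805 and 3315 with rIL-17B, or 202, 192, 124 and 189 CPM. Both rIL-17B libraries were below both PBS libraries, replicate 2 by a small margin. The means were 197 ± 6.54 and 156 ± 46.2 CPM (SD, n = 2 each), with a log2 fold change of -0.39 (SE 0.29, adjusted p = 0.661, edgeR). EHD2 stood at 62.6% of PBS (59.3 to 66.0) in rIL-17B replicate 1 and at 95.7% (91.6 to 99.9) in replicate 2. Within a library it had 42.5 and 40.9 reads per 100 of CAVIN1 with PBS, 30.7 in rIL-17B replicate 1 and 39.9 in replicate 2.

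Each rIL-17B library was also fitted alone against both PBS libraries with edgeR's quasi-likelihood test, which assumes that the lone library varies like the PBS pair and compares that library rather than the treatment. In rIL-17B replicate 1, 5 of the 6 coat genes passed and were lower, where 55.1% of all tested genes passed, 31.9% as lower and 23.2% as higher. The log2 fold changes were -7.25 (SE 0.18) for CAVIN2, -0.81 (SE 0.09, adjusted p = 1.98e-18) for EHD2, -0.72 (SE 0.11, adjusted p = 7.54e-10) for CAV2, -0.59 (SE 0.09, adjusted p = 2.15e-09) for CAV1 and -0.37 (SE 0.08, adjusted p = 2.31e-05) for CAVIN1. CAVIN3 did not pass (0.13, SE 0.12, adjusted p = 0.384). In rIL-17B replicate 2, 0 of the 6 passed, where 2.95% of all tested genes did, 2.3% as lower and 0.643% as higher. The nearest to passing was CAVIN2 (log2 fold change -0.21, SE 0.09, adjusted p = 0.226, edgeR). Without rIL-17B replicate 1, the fitted values of the 6 genes lay between -0.21 and 0.05 on the log2 scale.

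Other genes of caveolae and of the EHD family were read from a list of 11 genes, of which 9 were tested and 0 passed in edgeR, with 5 higher and 4 lower and a median log2 fold change of 0.04. EHD3, the relative of EHD2 that acts in endosome recycling, had 348 and 233 counts with PBS and 3 and 306 with rIL-17B. It stood at 1.02% of PBS (0.209 to 2.99) in rIL-17B replicate 1 and at 86.4% in replicate 2 (log2 fold change -1.18, SE 1.80, adjusted p = 0.749, edgeR). EHD3 thus showed the pattern of CAVIN2 rather than that of EHD2.

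EHD1, which also acts in recycling, had 1289 and 1085 counts with PBS and 1146 and 1463 with rIL-17B. EHD4 had 555 and 538 counts with PBS and 651 and 670 with rIL-17B. EHD1 stood at 95.1% and 101% of PBS and EHD4 at 117% and 101% in the rIL-17B replicates. By CPM, EHD3 was thus the only EHD gene besides EHD2 that was below PBS beyond counting error in replicate 1. With TMM scaling, EHD1 had a log2 fold change of -0.21 (SE 0.10) in the edgeR fit of that library alone.

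ROR1, a receptor that has been described to bind CAVIN1 and CAV1, had 450 and 345 counts with PBS and 108 and 404 with rIL-17B, and stood at 26.8% (21.7 to 32.8) and 83.3% (73.8 to 94.1) of PBS. The flotillins FLOT1 and FLOT2, which mark membrane domains other than caveolae, stood at 139% (133 to 145) and 135% (128 to 142) of PBS in rIL-17B replicate 1 and at 113% (108 to 118) and 101% (95.4 to 107) in replicate 2. PACSIN2, an F-BAR protein that bends the caveolar membrane, stood at 132% (125 to 140) and 113% (107 to 120), and its relative PACSIN3 at 151% (138 to 165) and 108% (98.5 to 118). In the fit of rIL-17B replicate 1 alone, FLOT1, FLOT2, PACSIN2 and PACSIN3 were higher and EHD3 and ROR1 lower, 6 of 9 where 55.1% of all tested genes passed, and 0 of the list passed in replicate 2. FLOT1 and PACSIN2 were above pooled PBS beyond counting error in both rIL-17B libraries, and the share of all tested genes that were so was not computed. By a different rule, both genes had both rIL-17B values above both PBS values, as 31.5% of all tested genes did.

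The muscle forms CAVIN4 and CAV3 and the neuronal PACSIN1 were scarce. CAVIN4 had between 22 and 32 counts, CAV3 between 0 and 6 and PACSIN1 between 3 and 8, and CAV3 and PACSIN1 were too low to be tested.

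**Figure D2:**
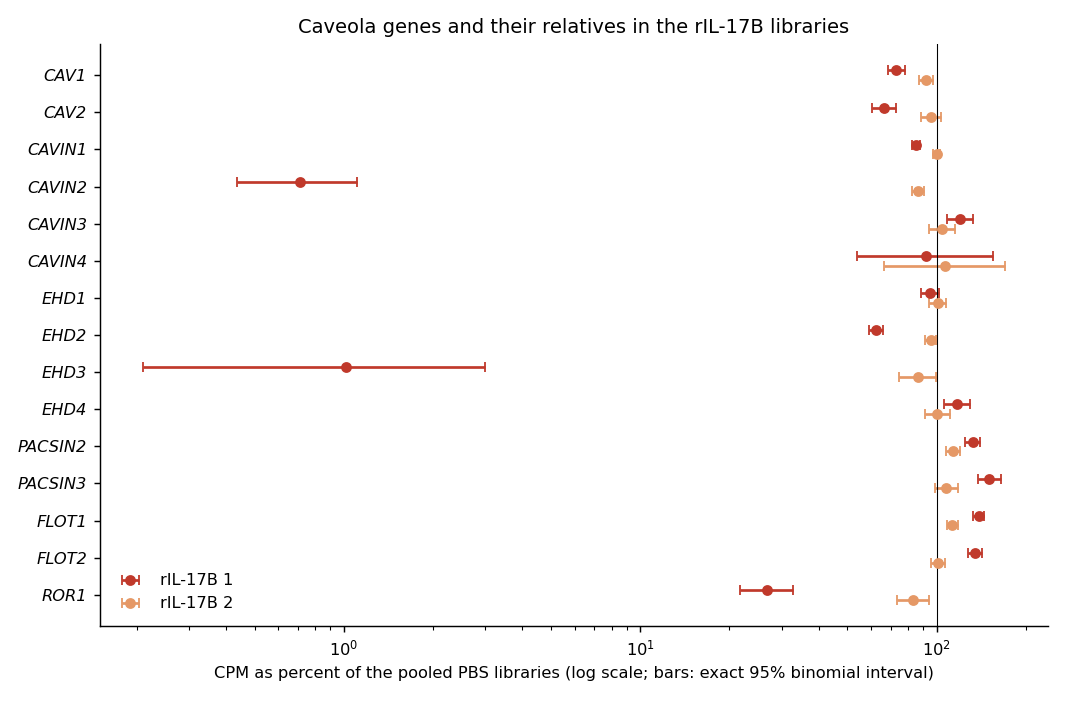
Level in each rIL-17B library as percent of the pooled PBS libraries (horizontal axis, log scale) for the 6 coat genes and 9 relatives (vertical axis), with exact 95% binomial intervals as bars. CAVIN2 at 0.713% and EHD3 at 1.02% stand apart in rIL-17B replicate 1, while replicate 2 keeps every gene between 83.3% and 113%.

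Caveolin and cavin partners, 15 genes for kinases, receptors and linkers known to bind the coat, included 14 tested genes, of which 0 passed in edgeR, with 3 higher and 11 lower and a median log2 fold change of -0.20. The highest of them per kb were FLNA, the actin linker of CAV1, with 56316 and 48658 counts with PBS and 56022 and 63684 with rIL-17B, and TGFBR2, a TGF-beta receptor, with 3252 and 2644 and then 1077 and 3350 counts. EGFR, the epidermal growth factor receptor, had the smallest p, with 2560 and 2467 counts with PBS and 1187 and 2321 with rIL-17B (log2 fold change -0.78, SE 0.33, adjusted p = 0.661, edgeR). GNAQ, a G protein subunit enriched in caveolae, came next with 1198 and 1041 counts with PBS and 559 and 1201 with rIL-17B (log2 fold change -0.60, SE 0.37). FLNA thus stood at 105% and 99.5% of PBS in the rIL-17B libraries, while EGFR, TGFBR2 and GNAQ stood at 46.5%, 36.0% and 49.2% in replicate 1 and at 75.7%, 93.2% and 88.0% in replicate 2.

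In the fit of rIL-17B replicate 2 alone, 2 of the 14 partners passed and were lower, where 2.3% of all tested genes did. These were EGFR, at 75.7% of PBS (72.1 to 79.6, adjusted p = 0.000475, edgeR), and KDR, a receptor of VEGF, at 39.0% (29.9 to 50.4, adjusted p = 1e-06, edgeR). KDR had 143 and 168 counts with PBS and 0 and 74 with rIL-17B, so it was low in both rIL-17B libraries, and it is also among the endothelial markers given below.

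The clathrin route, the main alternative to caveolar uptake, was covered by 22 genes, all tested, of which 0 passed in edgeR, with 10 higher and 12 lower and a median log2 fold change of -0.02. AP2M1 and AP2S1, subunits of the AP2 adaptor, were the highest per kb. AP2M1 had 8301 and 6582 counts with PBS and 11343 and 9819 with rIL-17B, and AP2S1 had 1537 and 1198 and then 1689 and 1724. FCHO2 and EPN2, early factors of the clathrin pit, had the smallest p and log2 fold changes of -0.29 (SE 0.14) and -0.51 (SE 0.24), both with an adjusted p of 0.661 in edgeR. The level of AP2M1 was above PBS in both rIL-17B libraries, and FCHO2 stood at 83.0% (73.8 to 93.2) and 88.4% (79.3 to 98.3) of PBS.

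YAP and TAZ act with TEAD factors on genes that answer to membrane and matrix tension, CAV1 and CAVIN1 among them. Of 13 genes of this list, all tested, 0 passed in edgeR, with 1 higher and 12 lower and a median log2 fold change of -0.29. The highest per kb were the targets CCN2, listed as CTGF, with 12761 and 10001 counts with PBS and 1022 and 11412 with rIL-17B, and CCN1, listed as CYR61, with 4241 and 3198 and then 1119 and 4010 counts. CCN2 stood at 8.85% of PBS (8.30 to 9.42) in rIL-17B replicate 1 and at 82.2% (80.4 to 84.1) in replicate 2. Over the 13 genes, the median log2 ratio to PBS was -0.35 in replicate 1 and -0.09 in replicate 2. All tested genes had medians of 0.09 and 0.003. At least 2-fold below both PBS libraries were 4 of the 13 in replicate 1 (17.1% of tested genes) and 0 in replicate 2 (0.134%).

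WWTR1, which encodes TAZ, had 2756 and 2345 counts with PBS and 1683 and 2537 with rIL-17B (log2 fold change -0.51, SE 0.20, adjusted p = 0.661, edgeR). TEAD4 had 413 and 358 counts with PBS and 784 and 553 with rIL-17B (log2 fold change 0.58, SE 0.26, adjusted p = 0.661, edgeR) and was the only gene of the list with a value above 0. In the fit of rIL-17B replicate 2 alone, WWTR1 (adjusted p = 0.0292) and CCN2 (adjusted p = 0.0206) passed in edgeR and were lower, 2 of 13 where 2.3% of all tested genes were.

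The genes next to the coat genes on the chromosome did not share their levels throughout. MET, 111206 bases after CAV1, had 3255 and 2352 counts with PBS and 5182 and 3968 with rIL-17B, and TES, 28597 bases before CAV2, had 2678 and 2028 and then 2943 and 3232. Both were above PBS in both rIL-17B libraries, at 182% and 116% for MET and 123% and 113% for TES, where CAV1 and CAV2 between them were below. On the sides of CAVIN2, NABP1 stood at 68.8% (62.4 to 75.7) and 97.3% (89.8 to 105) of PBS, and TMEFF2 had 33 and 42 counts with PBS and 0 and 35 with rIL-17B. NOP53, 2388 bases after EHD2, stood at 71.3% (66.8 to 76.1) and 95.3% (90.2 to 101) of PBS, and BICRA, on the other side, at 95.1% (80.8 to 112) and 109% (94.0 to 126).

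On the sides of CAVIN1, which stood at 85.3% and 100.3%, STAT3 stood at 111% and 106% of PBS and ATP6V0A1 at 127% and 93.3%. SMPD1, next to CAVIN3, stood at 89.8% (83.4 to 96.8) and 94.0% (87.7 to 101), and CCKBR on its other side had 0 counts in every library.

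The genes with the nearest profile were found by the distance between log2 values (CPM + 0.5) over the 4 libraries, after subtracting the PBS mean. For CAVIN2 they were FILIP1L (1064 and 841 counts with PBS, 2 and 954 with rIL-17B, distance 0.121), ARMCX3 (distance 0.126) and NFASC (distance 0.132). ARMCX3 had 840 and 672 counts with PBS and 0 and 767 with rIL-17B, and NFASC had 882 and 717 and then 1 and 823. For EHD2 they were VGLL3 (distance 0.0214), with 1892 and 1450 counts with PBS and 1074 and 1953 with rIL-17B, then TPM2 (distance 0.025) and DPYD (distance 0.0263). For CAV1 the nearest was NAB2 (distance 0.0198), for CAV2 it was CCNY (distance 0.0173), for CAVIN1 it was UGP2 (distance 0.00879) and for CAVIN3 it was MINK1 (distance 0.0111). Within a distance of 0.5 lay 39 genes for CAVIN2. The same distance held 2502 genes for EHD2, 3024 for CAV2, 3756 for CAV1, 5389 for CAVIN1 and 7981 for CAVIN3. Apart from CAVIN2, a small distance was therefore common and does not single out the genes named. The distance rests on 4 libraries, 1 of which stands apart.

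Markers of several cell types were low in the library where CAVIN2 was low. The 10 endothelial markers summed to 48.0 and 56.9 CPM in the PBS libraries and to 2.53 and 41.2 CPM in the rIL-17B libraries, with EMCN and TIE1 at 3 counts or fewer in every library. For 8 smooth muscle markers the sums were 1362 and 1384 CPM, then 54.2 and 1152 CPM. For 11 neural and glial markers they were 412 and 620.4 CPM, then 28.1 and 300.4 CPM, with SOX10 and DCX at 0 in every library. CAVIN2 and the fibroblast, endothelial, smooth muscle, and neural and glial sums were below both PBS libraries in both rIL-17B libraries. All of them were lower in replicate 1 than in replicate 2. Of single tested genes, 27.5% were below both PBS libraries in both rIL-17B libraries, 40.8% in replicate 1 and 36.1% in replicate 2. These are shares of genes, and no such share was taken for sums.

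The sum of 10 epithelial markers was 995 and 989 CPM, then 2219 and 1246 CPM, most of it from KRT8, and was highest where CAVIN2 was lowest. Of the 6 tested epithelial markers 4 were higher and 2 lower with rIL-17B, and KRT19 had 47 and 43 counts with PBS and 1 and 58 with rIL-17B. The sum of 6 adipocyte markers, nearly all of it LPL, was 73.3 and 69.9 CPM, then 139.7 and 89.5 CPM, with ADIPOQ at 0 in every library. The sum of 10 monocyte markers was 13.5 and 14.98 CPM, then 8.62 and 13.7 CPM, below both PBS libraries in replicate 1 only. In these 7 marker lists and the gene lists above, 0 genes passed between the groups in edgeR or DESeq2 and 0 had an unadjusted p under 0.05 in edgeR. The part of the markers in the levels of the coat genes was not tested.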

How the data were processed

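RNA from 4 samples of HGC-27 cells was sequenced after Smart-seq2 amplification from an oligo-dT primer, per the labels, whose protocol speaks of monocytes while the cell line field gives HGC-27. The authors deposited raw counts, the reads assigned to each gene name, with 1 file per library and no normalization. The submitters' processing notes name HISAT2 2.1.0, Bowtie2 2.2.3, TopHat2, HTSeq 0.6.0 and hg38 without saying what each was used for, and the annotation is not given in the sources used here.

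Repeated names (83 to 98 per library) were used once, rows whose names had become dates (22 to 25 per library, 0.228% to 0.244% of the counts) were left out, and a missing gene was set to 0. The join held 31907 names, 19194 of them in all 4 libraries, and 97.8% matched 1 gene of GENCODE 29. Genes left by filterByExpr were tested with edgeR 4.0.16 (TMM normalization, factors 0.97 to 1.07, quasi-likelihood F test, Benjamini-Hochberg threshold 0.05) in R 4.3.3, after a test on simulated data. The SE is the size of the log2 fold change divided by the square root of F. Ratios to pooled PBS have exact conditional binomial intervals. The members and gene lists were chosen with earlier results of these data known. A gene of the neural and glial list is not reported here. Genes outside the marker lists were named by a rule. It covers the 6 members, their nearest protein-coding neighbours and the 3 nearest profiles. In the other lists, genes could be named where a group of 5 or fewer genes is counted. Otherwise the 2 highest per kb and the 2 with the smallest p were named. Genes of the marker lists were named outside this rule. Alternatives were a replicate block, DESeq2 1.42.0, upper-quartile scaling, library totals only, no filter, at least 10 counts, an adjusted p of 0.1, merged older symbols, other lengths and pseudocounts, and leaving out each library. Deviations from the group mean had a correlation over genes of 0.08 between libraries of the same number, and the labels do not say that a number marks a shared culture or day. Figures and intervals were made with Python 3.11.15.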

Additional observations from a re-analysis of the deposited data

How the results depend on the processing

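The count of coat genes that passed was 0 with every other normalization, filter, tool and threshold tried, and between 0 and 5 when 1 library was left out. It was 5 without rIL-17B replicate 2 and 0 without any other library. Over all tested genes the count ran from 0 to 9489, with 504 without rIL-17B replicate 1. Leaving out 1 library moved the log2 fold change between -0.59 and -0.12 for CAV1, -0.72 and -0.0645 for CAV2, -7.25 and -0.21 for CAVIN2, 0.04 and 0.13 for CAVIN3, and -0.81 and -0.0647 for EHD2. For CAVIN1 it ran from -0.37 to 0.0014, so the sign turned without rIL-17B replicate 1. The genes that passed in a list ran from 0 to 2 for caveolins and cavins, 1 for EHD2 and adipocyte markers, 4 for epithelial markers, 6 for other caveola and EHD genes, 7 for endothelial, smooth muscle, monocyte, and neural and glial markers, 10 for partners, clathrin genes and fibroblast markers, and 12 for YAP and TAZ genes. The cause was not tested.

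With the replicate number as a block, 0 coat genes and 0 of all genes passed (173 with an unadjusted p under 0.05), and CAVIN2 had a log2 fold change of -3.52 (adjusted p = 0.676, edgeR). Across the alternatives that kept all libraries, the adjusted p of the 6 genes lay between 0.551 and 0.898. With the longest transcript as the length, the PBS levels were 35.8 CPM per kb for CAV1, 18.1 for CAV2, 29.8 for CAVIN3 and 54.9 for EHD2, and the order of the genes was the same apart from the overlap of CAVIN2 and EHD2. With 2 libraries a group and 1 that stands apart, 0 of the 16361 tested genes passed in the main fit, whatever the size of the difference. CAVIN2 did not pass there, though it stood at 0.713% of PBS in rIL-17B replicate 1. The other 229 recomputed values kept their direction and their call.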
